A study of Rattus norvegicus with 16 samples.

Results

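The genes described here are 7 members of the cholesterol synthesis pathway, Hmgcs1, Idi1, Fdps, Sqle, Lss, Dhcr7 and Insig1, taken by symbol from the deposited gene counts. They are 7 of 32623 gene records. Of these, 6 encode enzymes of the route from acetyl-CoA units to cholesterol and Insig1 encodes a regulator of that route; none is a lipoprotein receptor, so uptake is described through other genes further on. RNA came from female Big Blue rats, a strain transgenic for a vector with cII and lacI reporter genes that all groups share. The animals arrived at 6 weeks of age, were acclimated for 1 week and were then gavaged daily for 28 days with N-nitrosodiethylamine (NDEA), a liver carcinogen that cytochrome P450 turns into a DNA-alkylating species, at 10 mg/kg/day, or with a dose of 0 in the control groups. Liver and bone marrow were taken 3 days after the last dose, and each tissue gave 4 control and 4 NDEA libraries. The labels describe individually dosed rats but do not tie a library to an animal, so p-values measure the spread between these libraries.

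Cells make cholesterol from acetyl-CoA through mevalonate, isoprenoid pyrophosphates, squalene and lanosterol, and the liver is a main site of this synthesis. When sterols in the endoplasmic reticulum run low, the sensor SCAP carries the transcription factor SREBP2 to the Golgi, where it is cleaved and released to raise transcription of the synthesis genes. Insig proteins hold SCAP back when sterols are plentiful, and Insig1 is itself a target of the factor. HMGCS1 joins acetyl groups into HMG-CoA on the way to mevalonate. IDI1 interconverts the 5-carbon isoprenoid pyrophosphates and FDPS condenses them into farnesyl pyrophosphate, the branch point to sterols, dolichol, ubiquinone and prenylated proteins. SQLE oxidises squalene, LSS closes the ring to lanosterol, and DHCR7 reduces 7-dehydrocholesterol to cholesterol.

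The deposited table places Hmgcs1 (ENSRNOG00000016552) on chromosome 2 at 52431601 and Fdps (ENSRNOG00000043377) on chromosome 2 at 188392858. Idi1 (ENSRNOG00000016690) is on chromosome 17 at 57976268 and Sqle (ENSRNOG00000009550) on chromosome 7 at 99609191. Lss (ENSRNOG00000054549) is on chromosome 20 at 12842884, Dhcr7 (ENSRNOG00000020776) on chromosome 1 at 217018916 and Insig1 (ENSRNOG00000006859) on chromosome 4 at 342302. The build behind these positions is not given in the sources used here.

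Promoter windows are shown for the enzymes that passed the test in liver, Fdps and Dhcr7, and for Hmgcs1 and Insig1, because transcription of all these genes is known to be driven by SREBP2. Each is the 250 bases before the annotated start from RefSeq on build GRCr8, 5′ to 3′ on the gene's strand: Fdps chr2:176804817-176805066 (minus strand), Dhcr7 chr1:208444184-208444433 (plus), Hmgcs1 chr2:53382054-53382303 (plus) and Insig1 chr4:8057770-8058019 (minus). RefSeq windows were matched for 6 of the 7 genes, all but Sqle. Capitals mark matches on either strand to the CCAAT box (read backwards where its complement is capitalised), to the E-box, whose letters are CACGTG, and to a variant of the sterol element, whose letters are TCACACGAG.
Fdps: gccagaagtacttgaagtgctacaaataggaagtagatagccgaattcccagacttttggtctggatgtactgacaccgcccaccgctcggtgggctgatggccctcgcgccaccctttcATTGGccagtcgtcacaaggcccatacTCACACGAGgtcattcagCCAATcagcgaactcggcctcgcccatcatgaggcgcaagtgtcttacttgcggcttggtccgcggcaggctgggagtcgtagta
Dhcr7: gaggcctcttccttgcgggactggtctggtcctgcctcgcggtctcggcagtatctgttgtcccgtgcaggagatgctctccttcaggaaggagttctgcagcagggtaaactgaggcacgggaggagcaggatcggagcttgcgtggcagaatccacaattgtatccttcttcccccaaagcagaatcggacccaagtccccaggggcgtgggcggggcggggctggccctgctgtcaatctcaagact
Hmgcs1: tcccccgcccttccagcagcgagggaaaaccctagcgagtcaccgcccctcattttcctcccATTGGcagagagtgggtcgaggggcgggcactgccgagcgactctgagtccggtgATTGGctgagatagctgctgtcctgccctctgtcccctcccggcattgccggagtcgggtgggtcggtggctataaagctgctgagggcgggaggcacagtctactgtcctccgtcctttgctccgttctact
Insig1: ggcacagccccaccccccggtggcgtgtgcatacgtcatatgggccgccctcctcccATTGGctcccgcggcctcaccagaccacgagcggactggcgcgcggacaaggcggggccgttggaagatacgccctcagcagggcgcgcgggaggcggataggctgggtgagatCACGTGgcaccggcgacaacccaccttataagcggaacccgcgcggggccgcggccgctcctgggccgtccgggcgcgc

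The Fdps window holds TCACACGAG beginning 103 bases before the start, between a CCAAT match on the minus strand beginning at 130 and another on the plus strand beginning at 85. That variant was searched after the Fdps window had been seen, and it is in 0.0986% of 33469 RefSeq promoter windows of the same length. The classical sterol regulatory element written as TCACNCCAC was in 0 of the 6 windows, against 0.974% of all windows. CCAAT, the site bound by NF-Y, was in 5 of the 6, all but Dhcr7, against 34.0% of all windows. GGGCGG, a GC box, was searched too and is left in lower case; it was in 5 of the 6, all but Idi1, against 30.5%. Insig1 alone held CACGTG, beginning 79 bases before its start, a motif found in 5.59% of windows. No match to one motif overlapped a match to another in these windows. A match describes letters and is not evidence of binding.

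Libraries held 5000844 to 6863592 counts in liver and 2162182 to 5705705 in marrow, the shallowest being marrow control 1. Mitochondrially encoded genes took 16.2% to 20.6% of counts in liver control and 20.1% to 22.4% in liver NDEA, so this share moved with treatment. Levels below are CPM (counts scaled to a common library size within a tissue). The libraries were made with QuantSeq, which reads the 3' end of polyadenylated RNA, so a count does not scale with transcript length. The hepatocyte marker list (8 genes) summed to 116172 to 142765 CPM in liver control and to 805 to 1753 CPM over the 8 marrow libraries, where nearly all of it was Tf (803 to 1753 CPM) and Ttr, Apob, Serpina1, Fgb and Hnf4a had 0 counts. The neutrophil and granulocyte precursor list (10 genes) summed to 2.53 to 16.5 CPM in liver and to at least 21739 CPM in marrow. In liver its genes Mpo, Elane, Prtn3, Ctsg and Ltf had 0 counts, while S100a8 was counted in all 8 libraries (0.141 to 9.68 CPM); Ltf was at 0 in marrow too.

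In liver, Fdps and Dhcr7 were lower after NDEA, and no other gene of the 7 passed the test. Fdps fell to 0.673 of control and Dhcr7 to 0.734 of control, while Hmgcs1, Insig1 and Idi1 had smaller estimates below control and Sqle one above it. The low-count filter kept 6 of the 7 genes, all but Lss. Of those 6, 2 were lower and 0 higher at a limma adjusted p under 0.05, beside 3.74% of 9668 genes lower and 2.87% higher, 6.61% in either direction. The median log2 fold change was -0.34 over the 6 genes and 0.01 over all genes tested. In bulk tissue, fewer cells of a type and less RNA per cell cannot be told apart.

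Hmgcs1, at the head of the pathway, had 561, 853, 539 and 841 CPM in the 4 liver control libraries and 604, 545, 595 and 449 CPM in the 4 NDEA libraries. Control libraries 2 and 4 stood above all others, and controls 1 and 3 lay inside the NDEA range, so the groups overlapped. The log2 fold change was -0.32 (SE 0.14, limma adjusted p = 0.208), and the 95% interval of the fold ran from 0.655 to 0.979 before adjustment.

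Idi1 had 269.8, 255, 209.7 and 284 CPM in control liver and 283, 259, 235 and 175 CPM after NDEA. The groups covered nearly one range, with the lowest value in NDEA library 4. Its log2 fold change was -0.12 (SE 0.14, limma adjusted p = 0.723; 95% interval of the fold 0.752 to 1.13). Both records annotated as similar to the isomerase paralogue had 0 counts in every library, so no read was assigned to either record.

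Fdps had 671, 539, 557 and 684 CPM in control liver and 427, 396, 432 and 388 CPM in NDEA liver. Every NDEA library lay below every control library, and the NDEA libraries were tightly grouped (410 ± 22, SD, n = 4, against 613 ± 75.1, SD, n = 4). The log2 fold change was -0.57 (SE 0.11, limma adjusted p = 0.00124), lower in 4 of 4 NDEA libraries than in any control. Fdps was the only one of the 6 genes whose liver groups did not overlap; 12.5% of all genes tested showed such separation in either direction. With the mitochondrial share of counts as a covariate, the Fdps estimate was -0.37 (SE 0.15) and no longer passed (limma adjusted p = 0.343).

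Sqle, whose product oxidises squalene and is a slow step of the sterol branch, was the scarcest of the tested genes in liver. It had 53.9, 63.4, 52.3 and 59.4 CPM in control and 70.9, 54.5, 71.4 and 57.4 CPM in NDEA liver. NDEA libraries 1 and 3 lay above all controls while the other NDEA libraries lay among them. The log2 fold change was 0.16 (SE 0.18, limma adjusted p = 0.693), with a 95% interval of the fold from 0.865 to 1.44.

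Lss was barely counted. Its liver counts were 0, 3, 15 and 1 in control and 0, 4, 0 and 10 in NDEA, and it had 0 counts in all 8 marrow libraries. A floor of 3 counts would be 0.526 to 1.39 CPM in a marrow library, which is the limit that a count of 0 allows for counting error. Lss therefore entered no test, and no change or absence of change was measurable for it.

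Dhcr7, the terminal reductase of the Kandutsch-Russell branch, had 271, 266, 215 and 306 CPM in control liver and 209, 187, 218 and 161 CPM in NDEA liver. The groups met at a single point, control library 3 lying just under NDEA library 3. The log2 fold change was -0.45 (SE 0.13, limma adjusted p = 0.0458), close to the threshold. The call ended in 13 of 18 alternative settings, in which the adjusted p reached 0.588; among them was leaving out liver control 1, 2 or 4, or liver NDEA 1, 2 or 4, with estimates between -0.55 and -0.36 over all such omissions.

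Insig1, the feedback regulator, had 177, 120.5, 133 and 207 CPM in control liver and 127, 132, 121 and 106 CPM in NDEA liver. Controls 1 and 4 were high, control 2 lay inside the NDEA range and control 3 just above it. The log2 fold change was -0.37 (SE 0.16, limma adjusted p = 0.209; 95% interval of the fold 0.615 to 0.976 before adjustment).

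**Figure D1:**
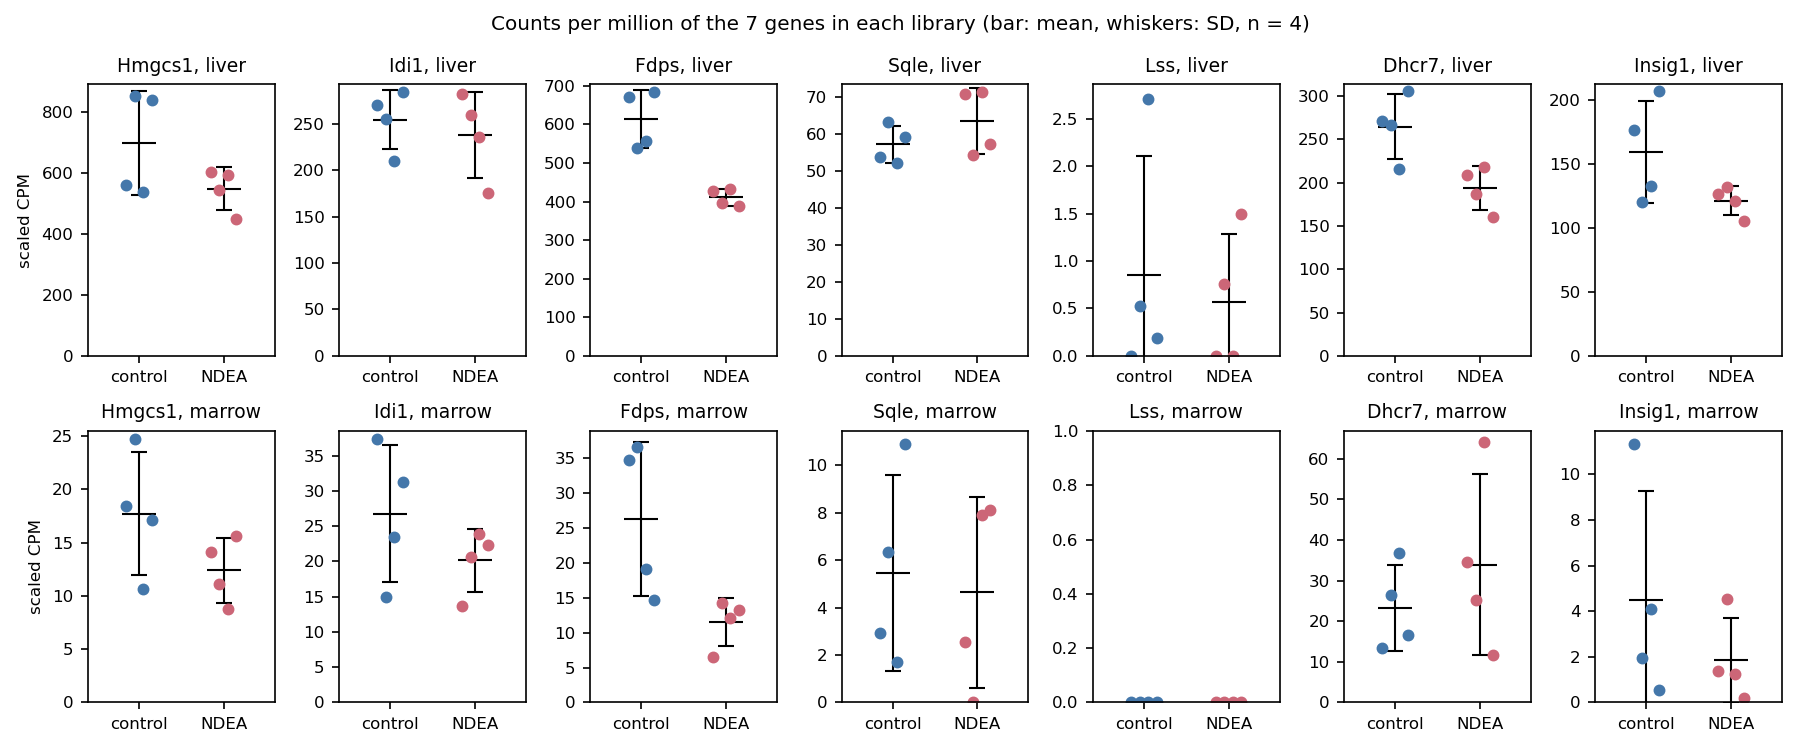
Scaled CPM of the 7 genes (columns) in liver (upper row) and marrow (lower row), 1 point per library, with the mean as a bar and the SD as whiskers cut at 0 (n = 4 per group; each panel has its own axis). In liver the 4 NDEA points of Fdps lie between 388 and 432 CPM, below all control points, and the groups of the other genes overlap.

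Summed over the 7 genes, control liver held 1711 to 2382 CPM (2048 ± 277, SD, n = 4) and NDEA liver 1337 to 1721 CPM (1576 ± 171, SD, n = 4). The sums overlapped because NDEA library 1 lay above control library 3. Most pairs of the tested genes also moved in the same direction within the liver groups, some of them weakly (Hmgcs1 with Fdps, r = 0.16). On deviations of log2 CPM from the group means over the 8 liver libraries, 14 of the 15 gene pairs had a Pearson r above 0, with a median of 0.63 and a range of -0.02 to 0.90, the highest being Fdps with Insig1. These libraries share their depth and scaling, and the values are a description. Pairs of genes outside the 7 were not examined in this way, so the share is not shown to be particular to these genes.

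By the Pearson r of log2 CPM over the 8 liver libraries with group means left in, so that the treatment difference counts, the genes outside the cholesterol lists most like the mean of the members were Tex2 (r = 0.98), Klhl25 (r = 0.97), Ndfip1 (r = 0.96), Reep6 (r = 0.95) and Tcf7l1 (r = 0.94), out of 4705 genes compared. With group means removed, Tex2, Reep6, Klhl25, Tprg1l and Ndfip1 led, so 4 genes were in both sets. Both sets are the highest of 4705 r values over the same 8 libraries, so their overlap is not a separate check. Among cholesterol genes outside the 7, Soat2, which esterifies cholesterol (r = 0.93), and the lanosterol demethylase Cyp51 (r = 0.92) were closest.

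The rest of the pathway was read from 5 lists, whose 74 matched genes outside the 7 had 66 tested in liver. Of these, 14 were lower and 2 higher after NDEA, 24.2% in all, beside the 6.61% of all genes tested; their median log2 fold change was -0.26. The sterol synthesis list, members included, had 18 tested genes, of which 6 were lower and 1 higher. Tm7sf2, a sterol C14 reductase, fell most in it, from 506 to 625 CPM in control to 235 to 380 CPM in NDEA, or 0.498 of control (SE 0.13 on the log2 scale, limma adjusted p = 1.12e-05). Sc5d, the C5 desaturase that makes the substrate of DHCR7, fell from 594 to 803 CPM to 400 to 463 CPM, by 0.74 on the log2 scale (SE 0.11, limma adjusted p = 7.90e-05). The groups of both genes were apart, and both calls held in all 18 alternative settings. Ebp, the sterol isomerase before SC5D, and Erg28, a scaffold of the demethylation complex, also fell (log2 fold changes -0.56 and -0.63).

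Other steps of synthesis gave other values. Fdft1, which makes squalene from the product of FDPS, averaged 148 ± 18.4 CPM in the control libraries and 148 ± 20.3 CPM in the NDEA libraries (SD, n = 4), with a 95% interval of the fold from 0.815 to 1.22. Cyp51 had a log2 fold change of -0.19 (limma adjusted p = 0.454). Of the 8 tested genes of the branches off farnesyl pyrophosphate to dolichol, ubiquinone and prenylation, 0 passed, beside 6.61% of all genes tested. An unadjusted limma p under 0.05 was found for 2 of the 8, beside 18.7% of all genes tested.

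Among the 16 tested genes of SREBP control, 2 were lower and 1 higher, beside 3.74% and 2.87% of all genes tested. The factor itself, Srebf2, and its escort Scap gave log2 fold changes of -0.04 and -0.20 (limma adjusted p = 0.922 and 0.613). Insig2, the paralogue of Insig1, fell from 16.6 to 32.4 CPM in control to 1.83 to 16.0 CPM in NDEA, to 0.244 of control (SE 0.49 on the log2 scale, limma adjusted p = 0.0115). That call ended without liver NDEA 3 (log2 fold change -1.33, limma adjusted p = 0.0530). It also ended with the mitochondrial share as a covariate (limma adjusted p = 0.110). March6, a ubiquitin ligase of the sterol-regulated degradation of squalene epoxidase, had a log2 fold change of -1.55 (limma adjusted p = 0.0475) at a mean of 14.6 CPM in control, and this call ended in 16 of 18 settings, among them the omission of any 1 library. Tmem97, which binds the lysosomal transporter NPC1, rose (log2 fold change 0.66, limma adjusted p = 0.0168), a call that ended without liver control 3 or liver NDEA 2.

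Uptake was read from a list that also covers intracellular cholesterol transport, with 14 genes tested. Of these, 6 were lower and 0 higher, beside 3.74% and 2.87% of all genes tested. The 6 include lysosomal and sterol transfer genes. Lrp1, a receptor for lipoprotein remnants, fell by 0.91 on the log2 scale (limma adjusted p = 1.33e-04), from 295 ± 42.6 to 156 ± 26.9 CPM (SD, n = 4).

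Called genes of this list also included the lysosomal lipase Lipa (log2 fold change -0.53), the lysosomal transporter Npc1 (-0.51) and the sterol transfer protein gene Gramd1c (-1.12). The Npc1 and Gramd1c calls each ended in 8 of 18 settings, without liver control 3 or 4 or liver NDEA 2, 3 or 4 for Npc1 and without liver control 1 or 3 or liver NDEA 1 or 3 for Gramd1c. In the list of esterification, efflux and LXR genes, 2 of 16 were lower, beside 3.74% of all genes tested. They were the plasma esterifying enzyme gene Lcat (-0.45) and the apolipoprotein gene Apoe (-0.35). The Ebp call ended without liver control 1 or liver NDEA 2 or 4.

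**Figure D2:**
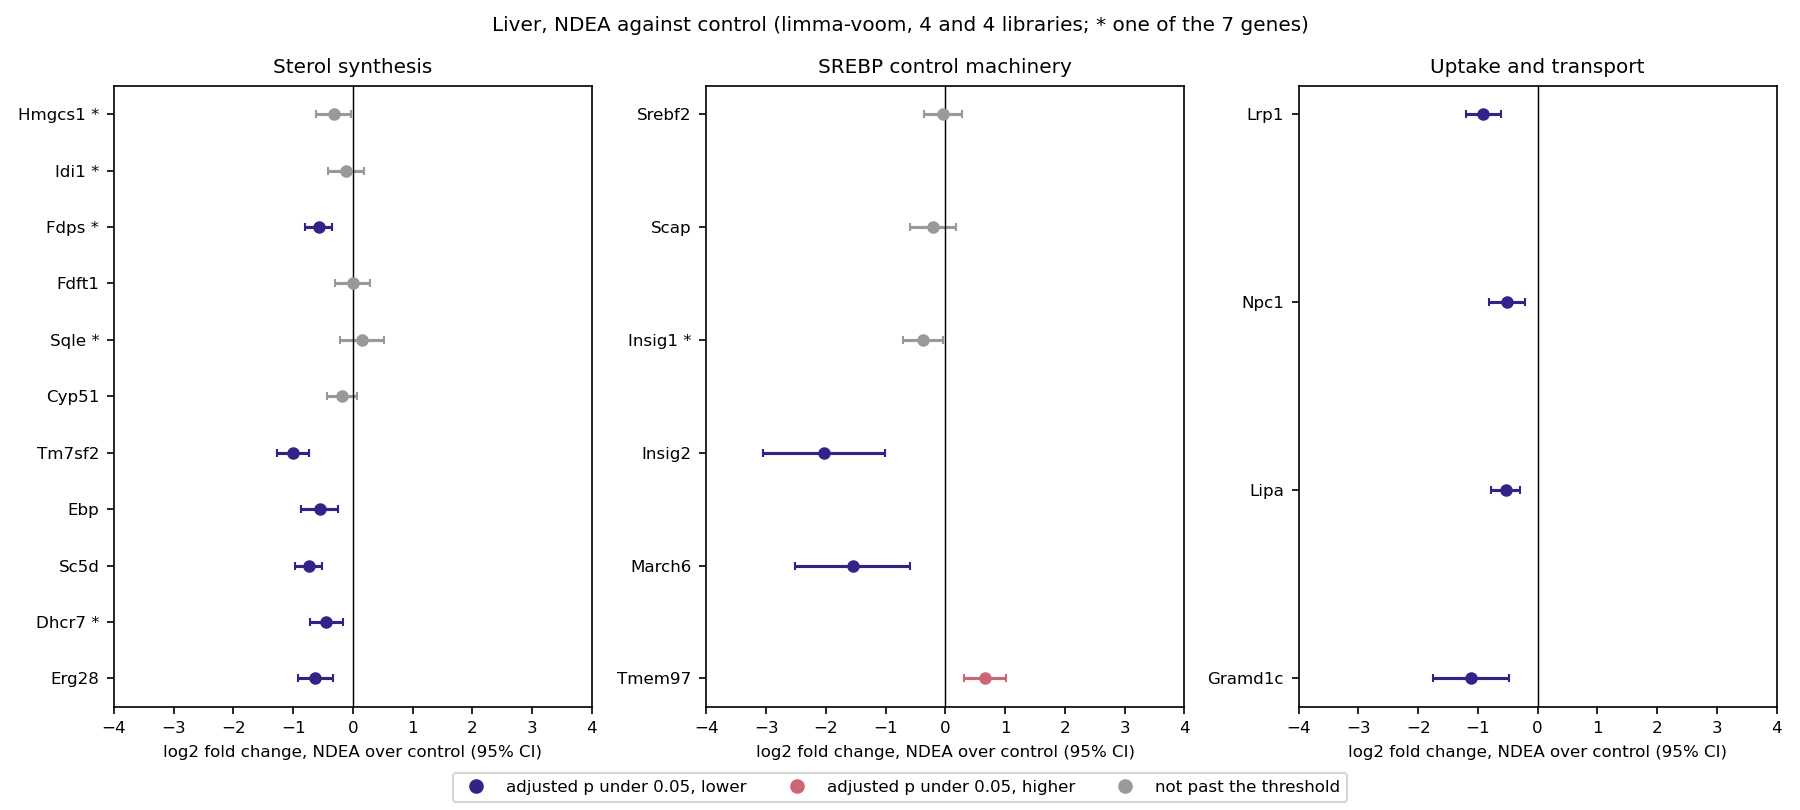
Log2 fold change of NDEA over control in liver with its 95% interval for the tested genes of 3 lists that the text names, members marked with an asterisk, colours giving the side of the limma threshold (4 libraries per group). In the sterol synthesis panel, lower calls fall at Fdps, Tm7sf2, Ebp, Sc5d, Dhcr7 and Erg28. Many plotted genes were named because they were called, while 11 of the 18 tested genes of that list were not called. Srebf2 lies at -0.04.

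Some other values moved with the treatment in the same liver libraries. All 8 genes of the cycling cell list were higher in NDEA, their sum going from 7.56 to 60.4 CPM in control to 208 to 333 CPM. The hepatocyte list had 3 genes higher and 2 lower of 8, and its sum was 110398 to 131192 CPM in NDEA. The stellate cell and fibroblast list had 2 of 6 tested genes higher and a sum of 407 to 491 CPM against 229 to 329 CPM. Over all genes tested in liver, 2.87% were higher and 3.74% lower. None of the genes on these 3 lists was at 0 in a liver group. The hepatocyte sums overlapped between the liver groups, while the cycling cell sums and the stellate cell and fibroblast sums did not. The sums of 3 other lists did not overlap either. The cholangiocyte list (6 genes, Krt19 at 0) went from 6.64 to 16.8 CPM in control to 24.3 to 40.5 CPM in NDEA, mostly through Epcam and Sox9, and 0 of its 2 tested genes passed. The T and NK cell list (6 genes, Cd4 at 0 and Cd3e and Cd3d at 0 in control) went from 1.40 to 9.92 CPM to 10.3 to 11.8 CPM, and its 1 tested gene did not pass. The adipocyte and marrow stroma list (7 genes, Adipoq, Plin1, Bglap and Sp7 at 0) went down from 213 to 328 CPM to 82.0 to 133 CPM, nearly all of it Cxcl12 (207 to 327 CPM in control, 76.7 to 115 CPM in NDEA), and 1 of its 3 tested genes was lower. For all 6 lists their part in the results above was not tested. With the mitochondrial share as a covariate, 0 of the 6 members and 3 of the 66 other genes passed, while 59 of all genes tested were higher and 95 lower in place of 277 and 362. With libraries scaled by their totals alone, the median of all liver genes moved from 0.01 to 0.12 on the log2 scale, the calls over all genes became 390 higher and 239 lower, and Fdps still passed (-0.46, adjusted p = 0.00688).

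**Figure D3:**
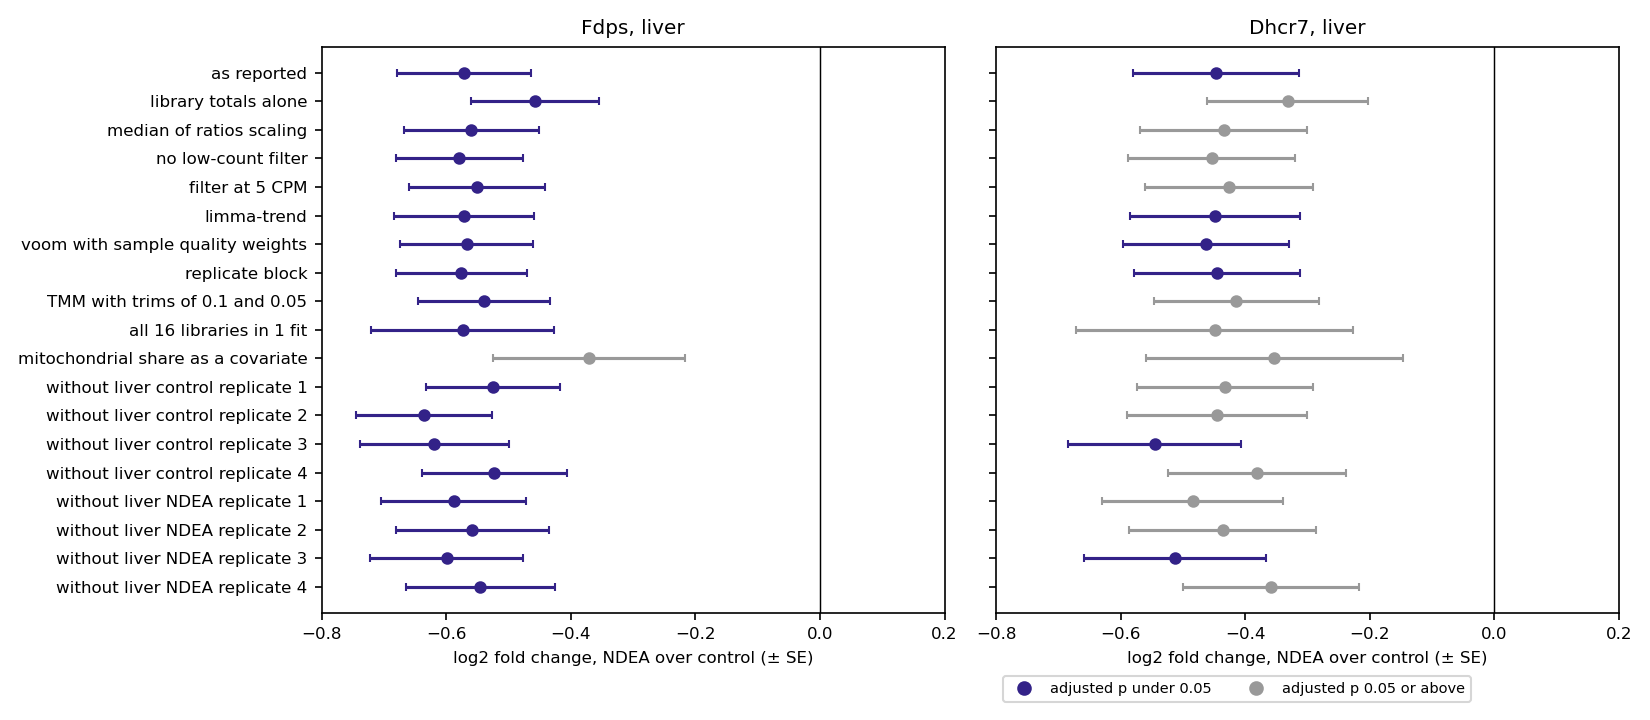
Log2 fold change ± SE of Fdps and Dhcr7 in liver as reported and under each of 18 alternative settings, dark where the limma adjusted p is under 0.05. Fdps is grey only with the mitochondrial share as a covariate (-0.37), whereas Dhcr7 is grey in 13 settings, all with estimates below 0.

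In bone marrow, none of the 6 tested genes passed the test, and 0 of 9239 genes did (0%), the smallest limma adjusted p being 0.247. Before adjustment 1336 genes had a p under 0.05, and Fdps was the only member among them. Fdps had 34.8, 36.7, 19.1 and 14.7 CPM in control marrow and 6.49, 14.3, 12.1 and 13.2 CPM after NDEA. The control libraries spread widely, and the lowest, control 4, lay just above NDEA library 2, so the groups did not overlap, by a small margin; 5.6% of genes tested in marrow showed such separation. The log2 fold change was -1.05 (SE 0.43, limma adjusted p = 0.284), with a 95% interval from -1.95 to -0.16 before adjustment.

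The other members spread more in marrow than they differed. Hmgcs1 had 18.4, 24.7, 10.6 and 17.2 CPM in control and 14.1, 11.1, 8.73 and 15.6 CPM in NDEA (log2 fold change -0.52, SE 0.40, limma adjusted p = 0.533). Idi1 ranged from 15.0 to 37.3 CPM in control and 13.7 to 23.9 CPM in NDEA (-0.27, SE 0.36, limma adjusted p = 0.736). The terminal enzyme gene Dhcr7 had 13.4, 26.4, 36.7 and 16.6 CPM in control and 34.5, 25.2, 64.2 and 11.7 CPM in NDEA, both the highest and the lowest library being NDEA (0.32, SE 0.46, limma adjusted p = 0.764). Sqle and Insig1 were near the detection limit, at 0 to 61 and 1 to 27 counts per library, and their log2 fold changes of -1.66 and -0.65 had SEs of 1.25 and 1.28. Both signs rest on 1 library, the estimate being 0.15 for Sqle without marrow NDEA 2 and 0.14 for Insig1 without marrow NDEA 4, and that of Dhcr7 was -0.06 without marrow NDEA 3.

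The sum over the 7 genes was 104 ± 12.7 CPM in control marrow and 84.4 ± 22.5 CPM in NDEA marrow (SD, n = 4), with overlap. On deviations from the group means over the 8 marrow libraries, 7 of 15 pairs had an r above 0, with a median of -0.03. Many of the 15 pairs hold Sqle or Insig1 with their few counts. Of the pairs without these genes, Hmgcs1 with Fdps (r = 0.27) and Idi1 with Fdps (0.10) lay above 0. The rest of those pairs lay below 0. A difference from liver was not tested. The genes most like the members' mean there were Dynll2 (r = 0.95), Tent5c (0.92), LOC103694872 (0.91), Aup1 (0.91) and Akr1b1 (0.90). With group means removed they were C1r, Mdm2, Snrpa1, Dynll2 and Ccdc80, so 1 gene was in both sets. Of 53 other pathway genes tested in marrow 0 passed, and 5 had an unadjusted p under 0.05, beside 14.5% of all genes tested there. Skeletal muscle genes moved with treatment in these libraries, their sum being 130 to 498 CPM in control and 55.9 to 71.8 CPM in NDEA with none at 0; with their level as a covariate Fdps gave -2.34 (SE 1.09, adjusted p = 0.543). The megakaryocyte and platelet list (6 genes, Gp1bb at 0 in NDEA) also did not overlap, with a sum of 352 to 675 CPM in control and 164 to 298 CPM in NDEA. Its part in the marrow values was not tested.

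The difference between the tissues in the response to NDEA was the interaction of treatment and tissue, tested over all 16 libraries. It called 257 of 11261 genes, 2.28%, and 0 of the 6 members. The estimate for Fdps, liver minus marrow, was 0.51 (SE 0.43, limma adjusted p = 0.591), and that for Dhcr7 was -0.69 (SE 0.49, limma adjusted p = 0.498). The median of this term over all genes was 0.32. A difference between the tissues was therefore not shown for either gene; the 95% intervals ran from -0.39 to 1.40 and from -1.70 to 0.32.

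**Figure D4:**
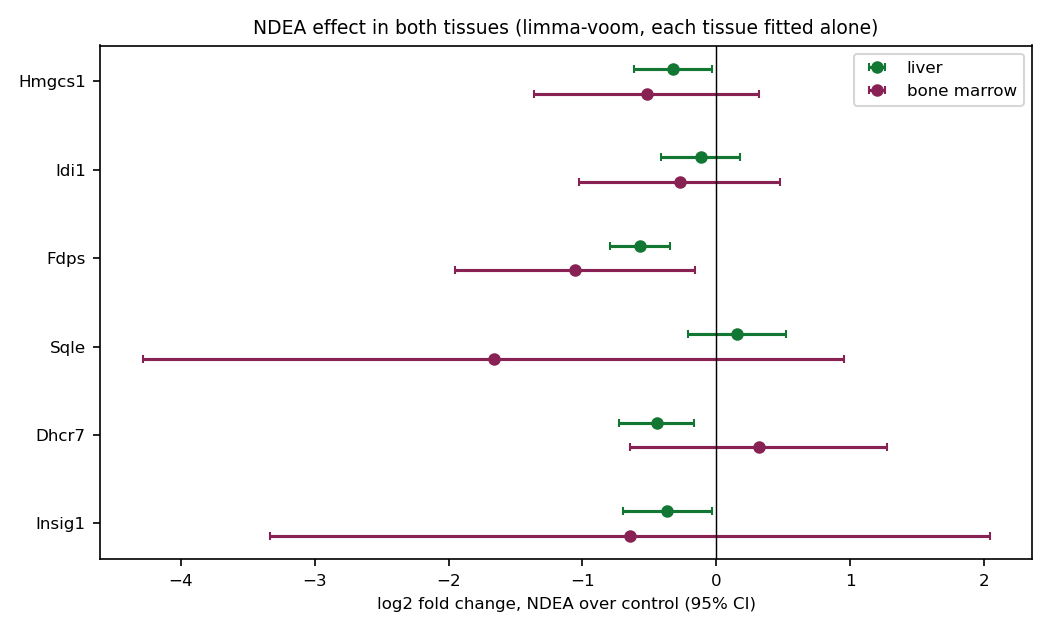
Log2 fold change of NDEA over control with its 95% interval for the 6 tested genes, liver and bone marrow each fitted alone (4 libraries per group). The marrow intervals are wider than those of liver for each gene, and for Fdps both tissues lie below 0, at -0.57 and -1.05.

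In control animals all 6 tested members were higher in liver than in marrow, with no overlap between libraries, beside 32.8% of 10071 genes higher in liver and 66.1% called in either direction. Insig1 had a 76.4-fold difference (log2 difference 6.25, SE 0.69) with a wide 95% interval of 27.5-fold to 212-fold; it was near the detection limit in marrow, and without marrow control 4 its log2 difference was 5.60. Hmgcs1 differed 46.9-fold and Fdps 30.8-fold, both inside the interval of Insig1, so these genes are not ranked against it. Dhcr7, Sqle and Idi1 differed by 14.0-fold, 13.6-fold and 12.5-fold (log2 differences 3.81, 3.76 and 3.65, limma adjusted p at most 6.97e-06 for any of the 6). The order among these last 3 lies within their 95% intervals. In liver, Hmgcs1 and Fdps stood above 98.3% and 98.0% of the genes tested there, and Sqle above 78.7%, whereas in marrow the 6 genes stood above between 12.7% (Insig1) and 58.2% (Idi1). The 7 genes together took 0.165% to 0.229% of all counts in control liver and 0.00868% to 0.0130% in control marrow.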

How the data were processed

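RNA of 16 rat libraries, 4 per tissue and treatment, was read. The authors deposited a table of raw counts of reads per gene, an unnormalised whole-number value for each gene and library. STAR and DESeq2 stand in the submitters' processing notes without a version; which counter, build or annotation the authors used is not given in the sources used here. Per the labels' protocols the libraries were 3' QuantSeq libraries, with no molecular identifiers named, so limits from counts of 0 cover counting error only. Of 32635 lines in the deposited table, 15591 began with a quote and 12 records were broken over 2 lines; these were rejoined. In 16313 records the authors' unnamed group totals equalled the sums of the counts, with 0 mismatches. The table's unnamed columns (34 in all, these totals included) gave no value used here. In the table as deposited, stray pieces of broken lines fall under the count columns. These were therefore recorded with the unit other, and count models were not run. The rejoined counts given to limma-voom were whole numbers.

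Limma-voom was the test (R 4.3.3, limma 3.58.1), two-sided. The filter asked for the CPM that 10 counts make in a library of median size, reached by 4 or more libraries, and for 15 counts in total. Libraries were scaled by TMM (trims 0.3 and 0.05), and the prior was 0.5 counts. Each tissue had its own fit, with treatment as its only term; the difference between tissues used all 16 libraries, and control liver was set against control marrow over 8. P-values were adjusted by Benjamini-Hochberg over all genes tested, at 0.05. The method was tested on simulated data. CPM are counts over the scaled library size of tested genes.

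The members and lists (5 of pathway genes, 13 of cell type markers) were chosen with earlier results of these data known. Named were the 7 members and Srebf2, Scap, Insig2, Fdft1 and Cyp51 whatever their values. Each other reported pathway gene called after NDEA in liver was named too. Calls between control liver and control marrow, 53 of the 63 pathway genes tested outside the 7, did not lead to naming. In each tissue the 5 genes outside the lists most like the members were named. Soat2 and the marker genes were named after their values were seen. The lists' counts also cover some genes that are not reported here. List entries without a matching gene record were not analysed here. Promoter windows came from RefSeq (GRCr8), matched by symbol. Alternatives changed the scaling, filter, test, covariates, block and libraries 1 at a time.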

Additional observations from a re-analysis of the deposited data

Results flagged for a closer look

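Over 12 genes (the members and the pathway genes named whatever their values) and the groups holding counts of them, 46 groups of 4 libraries were examined for a library far from the others, and 2 were found; chance alone flags about 1 in 20 groups. In liver control, Insig2 was lowest in library 3, at 16.6 CPM against 30.5 to 32.4 CPM in the others. In marrow control, Fdft1 was highest in library 2, at 24.1 CPM against 8.22 to 10.7 CPM. None of the 7 members had such a library in any group that was examined.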

How the results depend on the processing

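No alternative turned the direction of a called result. The count of 2 members called in liver became 1 with library totals alone, with median-of-ratios scaling, with no low-count filter, with a filter at 5 CPM, with TMM trims of 0.1 and 0.05 and with all 16 libraries in 1 fit, and 0 with a covariate for the mitochondrial share; it was 1 to 2 when each library was left out. The count of 16 other pathway genes called in liver became 9 with all 16 libraries in 1 fit and 3 with the mitochondrial covariate, and ranged from 10 (without liver control 3 or liver NDEA 2) to 19 when each library was left out. Fdps kept its call in 17 of 18 settings and ranged from -0.64 to -0.52 over omitted libraries. The uncalled Idi1 estimate in liver crossed 0 with the mitochondrial covariate (0.03) and without liver NDEA 4 (0.03). In marrow the uncalled estimates also crossed 0 with the mitochondrial covariate for Sqle (0.96) and Insig1 (0.61), and for Insig1 with the skeletal muscle covariate (0.68) and without marrow NDEA 3 and 4 (0.49); the tissue difference crossed 0 without marrow NDEA 2 for Sqle (-0.01), and for Insig1 without marrow NDEA 4 (-0.21) and with sample quality weights (-0.02). Members called in marrow and for the tissue difference stayed at 0, and all 6 stayed higher in control liver, in every setting run; over all marrow genes, leaving out marrow control 3 gave 111 higher and 207 lower calls and fitting all 16 libraries together gave 12 and 57. The causes were not tested. The library totals moved the median of all genes from -0.02 to -0.34 for control liver against marrow and from 0.32 to 0.40 for the tissue difference, and median-of-ratios scaling moved the latter to 0.19. On deviations from group means, same-numbered control and NDEA libraries correlated at -0.01 to 0.06. Same-numbered liver and marrow libraries correlated at -0.03 to 0.03. Not every library correlated best with its own number. These values cannot settle whether a liver and a marrow library came from the same rat, which the labels do not give. The comparisons between tissues treated all libraries as independent. A fit with the replicate block left 2 members called in liver and 0 in marrow, gave 19 other pathway genes in liver, and over all genes 395 higher and 462 lower calls in liver and 65 and 186 in marrow. The planned edgeR and DESeq2 alternatives were not run, a choice that rested on the table as deposited and not on the rejoined counts. Marrow depth limits Sqle, Insig1 and Lss; Insig1 did not pass the filter in 2 of the 19 marrow settings.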
